A study of Homo sapiens with 24 samples.

Results

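The 34 genes described here encode the constitutive subunits of the proteasome and the chaperones that build its base: PSMA1 to PSMA7, PSMB1 to PSMB7, PSMC1 to PSMC6 and PSMD1 to PSMD14. They were selected by exact symbol from the 28307 genes of the count table, and all 34 were found and had enough reads to be tested in both cell lines. RNA was sequenced from SUM159, a breast cancer line, and SW620, a colon cancer line. In each line, cells with high aldehyde dehydrogenase activity (ALDHbr, labelled as cancer stem cells) and cells with low activity (ALDHneg) were sorted after 30 h of the nitrofuran antibiotic nifuroxazide (NIF) or of its vehicle DMSO. This gave 8 groups of 3 independent biological replicates, 24 libraries in all. Each line stands for its tumor type as a single established line, and the population label rests on an enzyme activity gate. No gene was altered in any group.

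The proteasome degrades proteins that carry ubiquitin chains. Its core particle is a barrel of stacked rings, in which alpha subunits gate the entrance and beta subunits hold the proteolytic sites. A regulatory particle caps the barrel: a base with a ring of ATPases unfolds the substrate, and a lid removes the ubiquitin chain. In human cells the transcription factor NRF1 (NFE2L1) raises the transcripts of the subunits together when the proteasome is inhibited.

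Library totals ran from 30253187 to 43127948 reads (median 36520935), and a member gene held 805 to 33351 reads in a library. CPM is a gene's reads relative to the library total, which TMM adjusted between libraries except for the line markers that follow. In SUM159, 9 of 10 mesenchymal and 1 of 10 colon epithelial markers exceeded 10 CPM. In SW620, 4 of 10 mesenchymal and 8 of 10 colon epithelial markers did. ALDH1A1, a main source of the sorted enzyme activity, was 277-fold higher in ALDHbr than in ALDHneg SUM159 cells under DMSO. In SW620 the difference was 1.46-fold. ALDH1A3, listed with it as a marker of the sort, was 3.03-fold higher in ALDHbr SUM159 cells, at 0.62 against 0.20 CPM. In SW620 it was lower in ALDHbr cells, at 138 against 177 CPM (log2 difference -0.36, adjusted p = 0.000723, edgeR).

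The core and regulatory particles were contrasted first, by the mean log2 CPM of the 14 core genes and of the other 20 genes in each library. In SUM159 the core lay 0.09 to 0.18 log2 units above the regulatory particle over 12 libraries. In SW620 the gap was 0.29 to 0.50, so that the lines did not overlap. Core levels ran from 7.26 to 7.52 in SUM159 and from 7.53 to 7.88 in SW620. Regulatory levels ran from 7.16 to 7.35 and from 7.19 to 7.39. The gap is taken within a library, but the levels were scaled within each line. Whether a level overlapped between the lines therefore cannot be read from them. These levels are not scaled by transcript length.

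**Figure D1:**
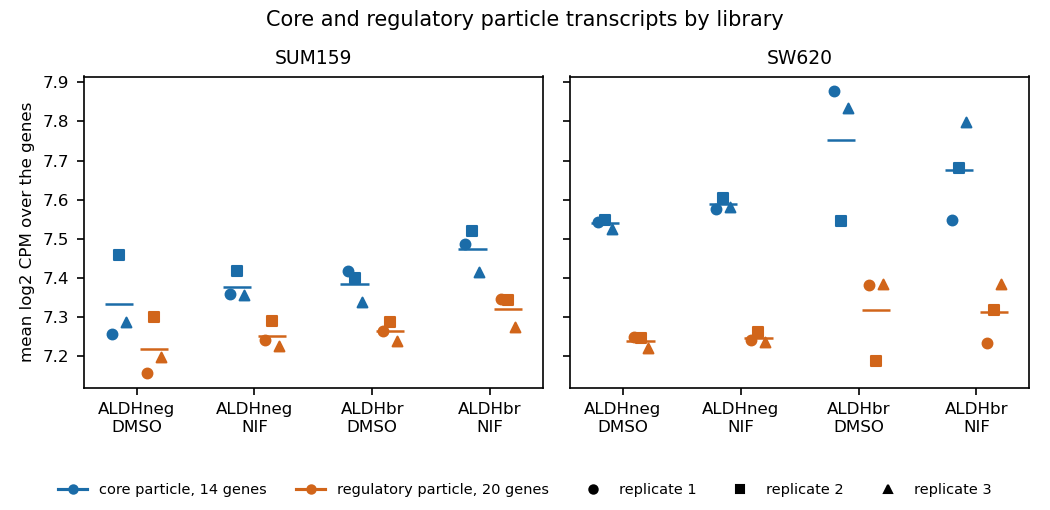
Mean log2 CPM of the 14 core and the 20 regulatory particle genes in each of the 24 libraries, by cell line (panels), population and treatment (horizontal axis), scaled within each line. Core values exceeded regulatory values in every library, by 0.09 to 0.18 in SUM159 and by 0.29 to 0.50 in SW620, and the SW620 ALDHbr groups were the most spread.

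Per kilobase of transcript, core genes were also the more abundant set. Under DMSO the median core gene of SUM159 ALDHbr cells had 159 CPM per kilobase (40.2 to 316 over 14 genes), against 91.7 for the 17 subunits of the regulatory particle (34.3 to 271) and 19.6 for the base assembly chaperones PSMD5, PSMD9 and PSMD10 (19.0 to 26.7). In SW620 ALDHbr cells the same medians were 156, 101 and 25.8 CPM per kilobase. Subunits of the same particle thus differed widely in transcript level. In the 8 groups the highest exceeded the lowest by 5.95-fold to 11.9-fold in the core and by 6.31-fold to 8.94-fold among regulatory subunits. Over all 34 members, of which a base assembly chaperone was the lowest in each group, the range was 13.4-fold to 33.1-fold. PSMA7, an alpha ring subunit, was the highest member per kilobase in SUM159 ALDHbr cells under DMSO.

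A measurement on the libraries themselves precedes the comparisons. Core transcripts were short (median 1003.5 bases, 762 to 4426), regulatory subunits longer (1754 bases, 1319 to 4390) and the chaperones longest (2725 bases). The balance between short and long transcripts was taken as the mean log2 CPM of the tested genes in the lowest quintile of transcript length minus that of the highest quintile. It was -0.79, -1.30 and -0.85 in replicates 1 to 3 of SW620 ALDHbr DMSO, and -1.32, -1.16 and -0.89 in those of SW620 ALDHbr NIF. The 6 SW620 ALDHneg libraries lay between -1.34 and -1.23, and the 12 SUM159 libraries between -1.18 and -0.83. The quintiles were taken within each line from its own tested genes (limits of 1712 and 5744 bases in SUM159, 1663 and 5579 in SW620). The balance therefore cannot be set against that of the other line. Replicate 2 of SW620 ALDHbr DMSO was the lowest of its group in 31 of 34 members, and replicate 1 of SW620 ALDHbr NIF in 31 of 34, including all 14 core genes in each case. In SUM159 ALDHneg DMSO, replicate 2 was the highest of its group in 31 members. Whether the length balance reflects the cells or the libraries was not tested. For the SW620 libraries, the counts of members called are given also without them. Comparisons within a line are given also with the length balance as a covariate in the same test, which was not done between the lines. That covariate comes from the same counts and was added after the data were seen.

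**Figure D2:**
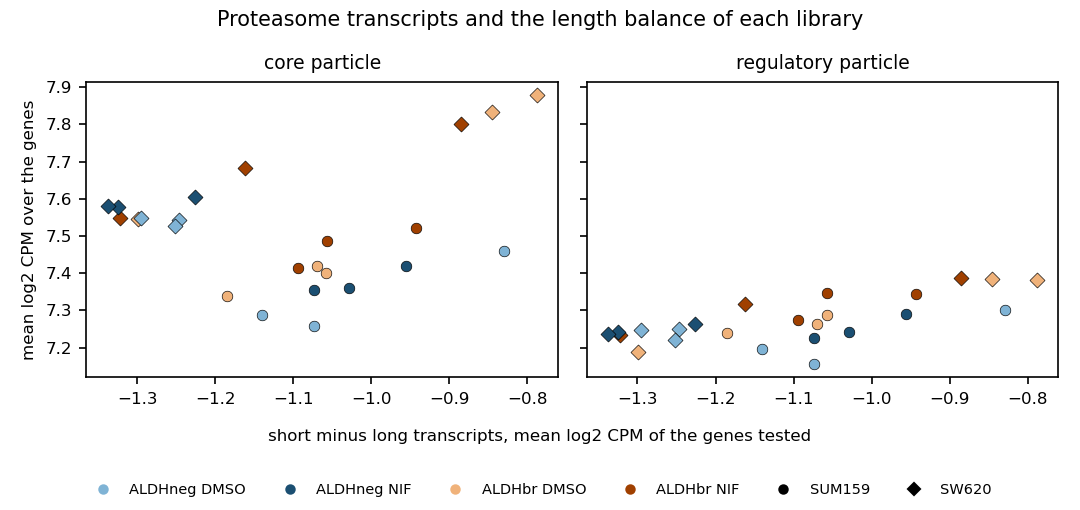
Mean log2 CPM of the core and of the regulatory particle genes (panels, vertical axis) in each library. The horizontal axis is the balance of short and long transcripts (log2 units), and both lines share each panel, marked by group and line. Balance and levels were taken within each line, so positions are not comparable between the lines. In SW620 the libraries with more signal from short transcripts also had the higher core levels. The 3 SW620 ALDHbr DMSO libraries spanned nearly the whole SW620 range of the balance.

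The effect of NIF was examined in each population. In SUM159, no member passed the threshold in either population when the replicate number was left out of the model. Results with that number in the model follow below. In ALDHbr cells 0 of 34 members were called at an adjusted p of 0.05 by the quasi-likelihood test of edgeR, where 3.16% of all genes tested were. Differences were small and mostly positive (31 of 34, median 0.08, range -0.08 to 0.17, against a median of -0.00 over all genes). In this comparison the lowest quintile of transcript length had a median of 0.04 and the highest -0.04. With the length balance as a covariate 11 of 14 core genes and 14 of the other 20 were positive. Their medians were 0.04 and 0.03, against 0.10 and 0.08 without the covariate. Without the covariate, 5 of 34 members passed at an unadjusted p below 0.05, where 2503 of the 14953 genes tested did. DESeq2, which called 6.32% of all genes, called PSMD3, a lid subunit, at 0.16 (adjusted p = 0.00703). In ALDHneg cells 0 of 34 were called (3.3% of all genes), and 3 passed unadjusted, where 2510 of 14953 genes did. DESeq2 called 0 (6.27% of all genes), and 23 differences were positive with a median of 0.03. With the length balance as a covariate 11 of 14 core genes and 14 of the other 20 were positive in ALDHneg cells.

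SUM159 libraries with the same replicate number moved together, and when that number entered the model as a block 3 members were called higher in ALDHbr cells, where 13.3% of all genes were. PSMB1, a beta ring subunit without a proteolytic site, had 169, 163 and 162 CPM under DMSO and 191, 185 and 182 CPM under NIF, without overlap, a log2 difference of 0.17 ± 0.06 (SE; adjusted p = 0.0450 with the block). PSMB3, another such subunit, differed by 0.16 (adjusted p = 0.0489), and PSMD3 by 0.15 (adjusted p = 0.0173). In ALDHneg cells the block gave 0 (13.2% of all genes), with 6 members at an unadjusted p below 0.05, for which the share of all genes is not given.

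In SW620, where NIF moved many more genes, the members moved in both directions. In ALDHneg cells 7 of 34 members were called (20.6%), against 45.1% of all genes tested (22.3% higher, 22.7% lower). The catalytic subunit PSMB7 and 3 lid subunits rose, while PSMA2 of the alpha ring and both large scaffold subunits of the base, PSMD1 and PSMD2, fell. These 6 libraries had nearly equal length balance.

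PSMB7, the beta 2 subunit with trypsin-like activity, had 158, 162 and 160 CPM under DMSO and 198, 203 and 195 CPM under NIF. The groups did not overlap, and the log2 difference was 0.31 ± 0.07 (SE; adjusted p = 0.00137). PSMD8, a lid subunit, had 290, 283 and 287 CPM under DMSO. Under NIF its libraries had 332, 349 and 333 CPM, all higher, with a log2 difference of 0.24 ± 0.06 (SE; adjusted p = 0.00437). PSMD14, the deubiquitinase of the lid, rose by 0.17 (adjusted p = 0.0365) and the lid subunit PSMD12 by 0.13 (adjusted p = 0.0348).

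PSMD1, the base scaffold that holds the ubiquitin receptor ADRM1, had 226, 226 and 215 CPM under DMSO and 196, 190 and 195 CPM under NIF. Its groups did not overlap either, and it fell by 0.20 on the log2 scale (SE 0.04, adjusted p = 0.00223). PSMA2 had 203, 212 and 208 CPM against 176, 184 and 182 CPM under NIF, again without overlap, a log2 difference of -0.20 ± 0.08 (SE; adjusted p = 0.0494). PSMD2, which docks shuttle factors, differed by -0.11 (adjusted p = 0.0416). The calls of PSMB7, PSMD8 and PSMD1 held under all 15 alternative settings, while PSMA2 and PSMD2 each lost theirs in 10, PSMD12 in 8 and PSMD14 in 7. Scaling by library size alone gave 2 higher and 6 lower members in place of 4 and 3 (46.8% of all genes), and RLE size factors gave 5 and 1 (44.9%). Without any single library of the 2 groups the count was 3 or 4, and the share of all genes in these fits is not given.

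The groups did not overlap for 26 of the 34 members, 16 higher and 10 lower, where 63.5% of all tested genes did not overlap, with small differences and very even replicates (median coefficient of variation over members 1.85% under NIF and 2.23% under DMSO). When only these 2 groups were fitted, 22 members were called, 14 higher and 8 lower, where 60.6% of all genes were. With the length balance as a covariate 23 were called, 15 higher and 8 lower, against 60.1% of all genes. The core level was 0.05 higher under NIF (7.59 ± 0.02 against 7.54 ± 0.01, SD, n = 3), and the regulatory level was 0.01 higher with overlapping libraries. Both turned negative when scaled by library size alone (-0.011 and -0.052), which moved the median of all genes to -0.067. The core minus regulatory gap widened from 0.30 to 0.34 without overlap.

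In SW620 ALDHbr cells 8 of 34 members were called (23.5%, against 43.3% of all genes, 21.4% higher and 21.9% lower): PSMD12 and PSMD11 of the lid were higher under NIF, and PSMA2, PSMA5, PSMA4, PSMB2, PSMD1 and PSMD13 were lower. Of the 14 core genes 4 fell and 0 rose. Among these called members, the sequences upstream of the pair with the highest and the pair with the lowest differences are shown first, since they ask whether members that moved apart share upstream motifs. They run 5′ to 3′ on the gene's strand over 250 bases before the start in RefSeq (GRCh38.p14). Capitals mark the antioxidant response element TGACNNNGC, at which NRF1 and NRF2 act, the box CCAAT and the ETS core GGAAGT, on either strand. The windows are chr7:42932175-42932424 (minus strand, PSMA2), chr1:109426449-109426698 (minus strand, PSMA5), chr17:67366578-67366827 (minus strand, PSMD12) and chr17:32444260-32444509 (plus strand, PSMD11).
PSMA2: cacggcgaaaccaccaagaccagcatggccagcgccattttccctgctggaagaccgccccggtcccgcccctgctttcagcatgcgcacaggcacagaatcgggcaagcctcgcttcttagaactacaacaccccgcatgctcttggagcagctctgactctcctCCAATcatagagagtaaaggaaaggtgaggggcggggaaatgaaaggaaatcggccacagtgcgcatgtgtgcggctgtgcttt
PSMA5: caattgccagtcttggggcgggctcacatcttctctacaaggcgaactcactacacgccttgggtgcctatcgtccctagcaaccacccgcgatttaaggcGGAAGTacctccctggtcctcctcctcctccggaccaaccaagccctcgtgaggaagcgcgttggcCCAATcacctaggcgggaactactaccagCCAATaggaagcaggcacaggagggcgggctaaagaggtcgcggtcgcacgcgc
PSMD12: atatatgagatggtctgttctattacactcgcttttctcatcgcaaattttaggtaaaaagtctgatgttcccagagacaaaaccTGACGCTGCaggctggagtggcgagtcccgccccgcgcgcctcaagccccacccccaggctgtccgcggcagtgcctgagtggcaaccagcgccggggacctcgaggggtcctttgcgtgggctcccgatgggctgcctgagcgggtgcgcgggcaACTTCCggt
PSMD11: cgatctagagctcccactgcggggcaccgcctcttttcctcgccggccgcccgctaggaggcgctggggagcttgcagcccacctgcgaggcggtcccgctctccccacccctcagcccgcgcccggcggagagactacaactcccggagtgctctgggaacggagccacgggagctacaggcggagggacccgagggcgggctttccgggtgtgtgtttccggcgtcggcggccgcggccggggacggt
PSMA2 held 1 CCAAT, PSMA5 had 2 and a GGAAGT, PSMD12 had a TGACNNNGC and a GGAAGT on the other strand, and PSMD11 had none of these letters. In windows of 300 bases that include the first 50 after the start, TGACNNNGC was found in 9 of the 29 members with a window (31.0%). It was found in 13.3% of 35116 promoters. A member was counted if any of its windows matched, with 35 windows for 29 members, while the promoters were counted singly. The shares are therefore on unlike units, which raises those of the members. CCAAT was found in 16 (55.2%, against 34.6%) and GGAAGT in 17 (58.6%, against 22.8%). A match is a description of the letters only.

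PSMA2 had 264, 210 and 251 CPM in ALDHbr cells under DMSO and 178, 198 and 212 CPM under NIF. The second DMSO library lay within the range of NIF, and the log2 difference was -0.30 ± 0.08 (SE; adjusted p = 0.00664). PSMA5, also an alpha ring subunit, had 220, 177 and 217 CPM against 161, 175 and 192 CPM under NIF, a difference of -0.22 ± 0.08 (SE; adjusted p = 0.0384) in which the second DMSO library again lay within the range of NIF.

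PSMD12 had 271, 255 and 252 CPM under DMSO and 281, 292 and 290 CPM under NIF, without overlap, a log2 difference of 0.15 ± 0.05 (SE; adjusted p = 0.0166). PSMD11, a lid subunit that also touches the alpha ring, had 342, 357 and 353 CPM against 380, 374 and 381 CPM under NIF. It did not overlap and differed by 0.11 ± 0.04 (SE; adjusted p = 0.0386), a call lost in 10 of 16 alternatives, among them 5 of the 6 in which 1 library was left out. PSMD14, PSMB7, PSMD8 and PSMC4, which were not called, had higher values (0.16, 0.14, 0.12 and 0.12). PSMD1 was again lower, at 220, 213 and 227 CPM under DMSO and 198, 199 and 199 CPM under NIF, by 0.15 on the log2 scale (adjusted p = 0.0162). The other members called were PSMD13 of the lid at -0.21 (adjusted p = 0.0400), PSMA4 of the alpha ring at -0.20 (adjusted p = 0.0487) and PSMB2 of the beta ring at -0.18 (adjusted p = 0.0218).

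Scaling by library size gave 1 higher and 9 lower members (44.3% of all genes). The count changed with the library left out, also for libraries that did not stand apart. It was 16 (2 higher, 14 lower; 50.4% of all genes) without replicate 2 of ALDHbr DMSO and 15 (5 higher, 10 lower; 47.4%) without that library and replicate 1 of ALDHbr NIF. It was 4 without replicate 1 of ALDHbr DMSO, 2 without replicate 2 of ALDHbr NIF and 1 without replicate 3 of ALDHbr DMSO. The shares of all genes in these 3 fits are not given, so these counts alone do not describe the members. When only the compared groups were fitted the count was 0 (32.6%), and 3 passed unadjusted, for which no share of all genes is given. The core level differed by -0.08 and the regulatory level by -0.01 between NIF and DMSO, both with overlap. Without 1 library they ran from -0.18 to -0.012 and from -0.07 to 0.034, the lowest without replicate 2 of ALDHbr DMSO and the highest without replicate 1 of ALDHbr NIF, so that the regulatory difference changed sign.

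With the length balance as a covariate, 20 members were called in ALDHbr cells (54.5% of all genes), 13 higher and 7 lower. PSMA2 (-0.21, adjusted p = 5.74e-06) and PSMD1 (-0.14, adjusted p = 0.00121) were still lower, and PSMD12 (0.16, adjusted p = 0.000208) was still higher. PSMB7 was then higher by 0.21 (adjusted p = 2.81e-06), PSMD8 by 0.18 (adjusted p = 8.99e-06) and PSMD14 by 0.22 (adjusted p = 1.15e-05), where without the covariate PSMB7 had a log2 difference of 0.14 (adjusted p = 0.0890) in ALDHbr cells. Of the core genes 5 were then higher and 4 lower, and the median core difference moved from -0.08 to 0.02.

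The 6 base ATPases, which unfold the substrate, were not called for NIF in any population when all libraries of a line were fitted without the covariate. They lay between 0.01 and 0.09 in SUM159 ALDHbr cells, -0.01 and 0.08 in SUM159 ALDHneg cells, -0.16 and 0.12 in SW620 ALDHbr cells and -0.14 and 0.10 in SW620 ALDHneg cells. Without replicate 2 of SW620 ALDHbr DMSO, PSMC1 (-0.23, adjusted p = 0.00242) and PSMC2 (-0.15, adjusted p = 0.0380) were lower in ALDHbr cells, and library-size scaling called PSMC1 in ALDHbr (-0.19) and PSMC2 in ALDHneg cells (-0.20). With the covariate PSMC4 was higher in SW620 by 0.17 in ALDHbr (adjusted p = 8.18e-05) and by 0.11 in ALDHneg cells (adjusted p = 0.00421), and PSMC6 by 0.12 (adjusted p = 0.0117) and by 0.11 (adjusted p = 0.0173). PSMC2 was lower by 0.13 on the log2 scale in ALDHneg cells (adjusted p = 0.00150).

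**Figure D3:**
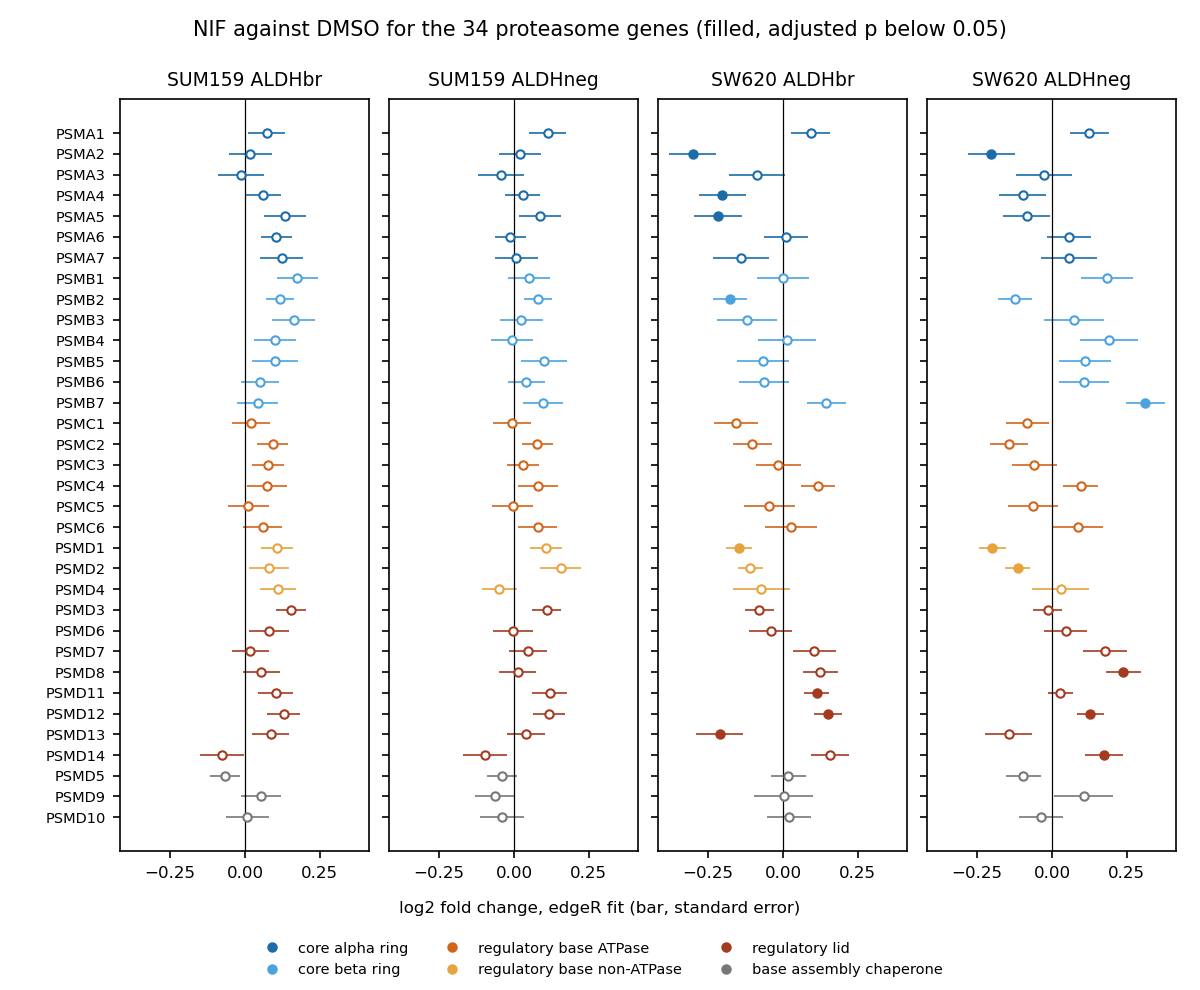
Log2 fold change of NIF against DMSO for each of the 34 members (vertical axis, ordered by role) in the 4 line and population combinations (panels), from edgeR, with its standard error as a bar and called members marked. In this fit, without the replicate number, SUM159 has 0 called members in both populations, SW620 ALDHbr has 8 and SW620 ALDHneg has 7, among them PSMB7 at 0.31.

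Whether the populations responded differently was tested by the interaction. In SUM159 and in SW620, 0 of 34 members were called by edgeR, where 0% and 0.00717% of all genes were. At an unadjusted p below 0.05 there were 0 members in both lines, where 238 of 14953 genes in SUM159 and 771 of 13953 in SW620 passed. DESeq2 called 0 members. The interaction was negative in 14 of 14 core genes of SW620, with a median of -0.15, and in 10 of 20 others. With the length balance as a covariate it was negative in 11 of 14, with a median of -0.07.

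The difference of the NIF effect between the lines was called in 6 members for ALDHbr cells (23.1% of all genes, 10.7% lower) and in 2 members for ALDHneg cells (22.4%, 10.5% lower), each lower in SW620 than in SUM159. PSMD1 was called in both. In ALDHbr cells the difference was -0.26 (adjusted p = 0.00671) and in ALDHneg cells -0.30 (adjusted p = 0.00170): in SUM159 its means were 231 CPM under DMSO and 248 CPM under NIF in ALDHbr cells and 231 and 249 CPM in ALDHneg cells, which was not called. PSMB2 differed by -0.30 in ALDHbr cells (adjusted p = 0.00446), and PSMD2 by -0.26 in ALDHneg cells (adjusted p = 0.0202). The shares of all genes in the fits that follow, each without 1 library, are not given. The count in ALDHbr cells was 13 without replicate 2 of SW620 ALDHbr DMSO. It was 3 without replicate 1 or 3 of that group or replicate 1 of SW620 ALDHbr NIF. In ALDHneg cells it was 1 without replicate 1 of SUM159 ALDHneg NIF, SW620 ALDHneg NIF or SW620 ALDHneg DMSO, 4 without replicate 2 of SUM159 ALDHneg NIF and 5 without replicate 3 of SUM159 ALDHneg DMSO.

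The other genes of the pathway gave the setting of these values. Of 40 companion genes 38 were tested, which include the interferon-inducible subunits, alternative caps, assembly factors, transcription factors, ubiquitin genes and shuttle factors. In SUM159 1 of 38 was called in each population (2.63%), where 3.16% of all genes were in ALDHbr and 3.3% in ALDHneg cells. This was NFE2L2 (NRF2), lower under NIF by 0.44 in ALDHbr cells (adjusted p = 0.00282) and by 0.37 in ALDHneg cells (adjusted p = 0.0118, lost in 3 of 15 alternatives). With the replicate block 3 of 38 were higher and 2 lower in ALDHbr cells, where 13.3% of all genes were called. In ALDHneg cells 3 were higher and 3 lower, against 13.2% of all genes. Among these POMP and KEAP1, which marks NRF2 for degradation, rose in both, NFE2L2 fell in both, and PSMB9 fell in ALDHneg cells. In SW620, 11 were higher and 11 lower in each population, where 43.3% of all genes were called in ALDHbr and 45.1% in ALDHneg cells. In ALDHbr cells the counts were 14 and 17 without replicate 2 of ALDHbr DMSO (50.4% of all genes), 13 and 15 without that library and replicate 1 of ALDHbr NIF (47.4%), and 7 and 9 when only the compared groups were fitted (32.6%).

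The interferon-inducible immunoproteasome subunits and their cap were among those lower in SW620. PSMB8, which replaces PSMB5, fell by 0.86 on the log2 scale in ALDHbr and by 0.39 in ALDHneg cells. PSMB10, which replaces PSMB7, fell by 0.63 and by 0.49. The cap subunits PSME1 and PSME2 fell by 0.50 and 0.62 in ALDHbr cells and by 0.40 and 0.56 in ALDHneg cells, and PSME3, the nuclear cap, by 0.37 and 0.35. PSMB9, which replaces PSMB6, had only 0.429 and 0.515 CPM under NIF and DMSO in ALDHbr cells and was not called. Neither were POMP, the core maturation factor, and PSMF1, an inhibitor, although POMP was lower in ALDHbr cells without replicate 2 of ALDHbr DMSO (-0.23, adjusted p = 0.00525). In contrast PSME4, a cap linked to histone degradation, rose by 0.35 and 0.30, NFE2L1 by 0.24 and 0.29, and ZFAND2A, a stress-induced cofactor, by 0.88 and 0.96, the largest log2 differences of the list. The constitutive subunits, in the same libraries, moved between -0.30 and 0.31.

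The populations were compared under DMSO. In SUM159, 5 of 34 members were called (14.7%, against 23% of all genes, 10.7% higher and 12.3% lower). ALDHbr cells had more PSMA7 (0.41, adjusted p = 0.000743), PSMD2 (0.31, adjusted p = 0.00333) and PSMD3 (0.21, adjusted p = 0.00604), and less PSMB6 and PSMD9. All 5 calls held under the 15 alternatives. With the replicate block 10 members were called, 8 higher and 2 lower (36% of all genes), and without replicate 2 of ALDHneg DMSO 9, 7 higher and 2 lower (20.3%). With the length balance as a covariate 15 were called, 13 higher and 2 lower (29.2%), and in each of these fits PSMB6 and PSMD9 were the lower members.

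PSMB6 had the largest difference of any member within a line. This subunit carries the caspase-like site of the core (beta 1). It had 59.4, 59.5 and 63.0 CPM in ALDHbr and 90.0, 103 and 90.6 CPM in ALDHneg cells. The groups were far from overlapping, and the log2 difference was -0.64 ± 0.06 (SE; adjusted p = 2.82e-06). Under NIF the libraries had 59.9, 65.9 and 62.7 CPM in ALDHbr and 95.0, 98.2 and 98.1 CPM in ALDHneg cells, so that the gap was present under both treatments. The other 13 core genes lay between -0.01 and 0.41 in this comparison.

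The genes around PSMB6 were examined next. PSMB6 lies on the short arm of chromosome 17, at chr17:4796164-4798495 in GRCh38.p14. Of 111 tested genes within 3 Mb of it, 93 were called lower in ALDHbr cells and 1 higher, with a median log2 difference of -0.79. The ubiquitin gene UBB, further along the arm, differed by -0.88 and had 61 such neighbours, of which 47 were lower and 0 higher, with a median of -0.78. PSMA7, near the end of the long arm of chromosome 20 (chr20:62136733-62143394), had 52 neighbours with a median of 0.28, 28 of them higher and 5 lower. PSMD2 had 52 neighbours with a median of 0.20 (14 higher, 2 lower), whereas the neighbours of PSMD3 and PSMD9 had medians of 0.03 and 0.06. In steps of 5 Mb, the medians along chromosome 17 ran from -0.82 to -0.76 over the first 25 Mb and from -0.12 to 0.08 beyond. Neighbours are not independent measurements, and the DNA content of the sorted cells was not tested.

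**Figure D4:**
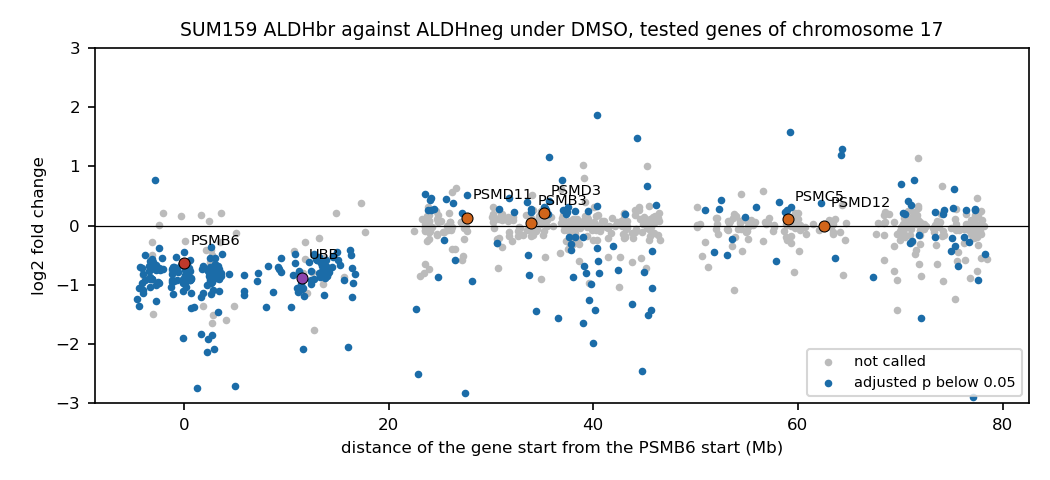
Log2 fold change of ALDHbr against ALDHneg SUM159 cells under DMSO for 890 tested genes of chromosome 17 (vertical axis; 7 beyond the axis are not drawn) by distance from PSMB6 (horizontal axis, Mb). Genes around PSMB6 and UBB form a band well below 0 with medians of -0.79 and -0.78, which ends within the chromosome, and the other members on this chromosome lie outside the band.

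In SW620, 3 of 34 members were called higher in ALDHbr cells (8.82%, against 11.3% of all genes, 5.45% higher and 5.86% lower). PSMB1 had 245, 191 and 242 CPM in ALDHbr cells and 188, 189 and 179 CPM in ALDHneg cells. The second ALDHbr library lay just above the ALDHneg range, and the difference was 0.29 ± 0.09 (SE; adjusted p = 0.0491). PSMD13 differed by 0.28 (adjusted p = 0.0364) and PSMA1, an alpha ring subunit, by 0.22 (adjusted p = 0.0472). All 14 core genes were positive, with a median of 0.23, and 17 of the other 20, with a median of 0.09.

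These values moved with the length balance of the same libraries. Over all genes in this comparison, the lowest quintile of transcript length had a median difference of 0.16 and the highest -0.17. Without replicate 2 of ALDHbr DMSO, the library whose balance was that of ALDHneg cells, 26 members were called (38.8% of all genes), 24 higher and 2 lower, with 14 of 14 core genes higher. Without any other single library of the 2 groups 0 were called by edgeR, and 6 to 13 passed at an unadjusted p below 0.05. The shares of all genes in these fits are not given. With the length balance as a covariate 0 were called (11.1%), the median core difference being 0.05. The core minus regulatory gap was 0.43 ± 0.07 (SD, n = 3) in ALDHbr and 0.30 in ALDHneg cells, without overlap.

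The 3 catalytic subunits and the 3 base assembly chaperones were followed over all groups. PSMB5, with the chymotrypsin-like site (beta 5) at which clinical proteasome inhibitors act, was not called for NIF when all libraries of a line were fitted without the covariate. Its means were 172 and 184 CPM in SUM159 ALDHbr cells under DMSO and NIF, 173 and 185 CPM in SUM159 ALDHneg cells, 130 and 124 CPM in SW620 ALDHbr cells and 108 and 117 CPM in SW620 ALDHneg cells. PSMB6 was not called for NIF in that fit either. Other settings called both, in opposite directions in the SW620 populations. In ALDHneg cells PSMB5 was higher by 0.13 (adjusted p = 0.000933) and PSMB6 by 0.13 (adjusted p = 0.00261) with the covariate, and both also when only the compared groups were fitted. In ALDHbr cells without replicate 2 of ALDHbr DMSO, PSMB5 differed by -0.16 (adjusted p = 0.0405) and PSMB6 by -0.15 (adjusted p = 0.0469). The order of the catalytic subunits by CPM per kilobase in SUM159 ALDHbr cells under DMSO was PSMB7 (215 ± 10.3, SD, n = 3), PSMB5 (165 ± 4.48) and PSMB6 (73.6 ± 2.47), without overlap of libraries.

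**Figure D5:**
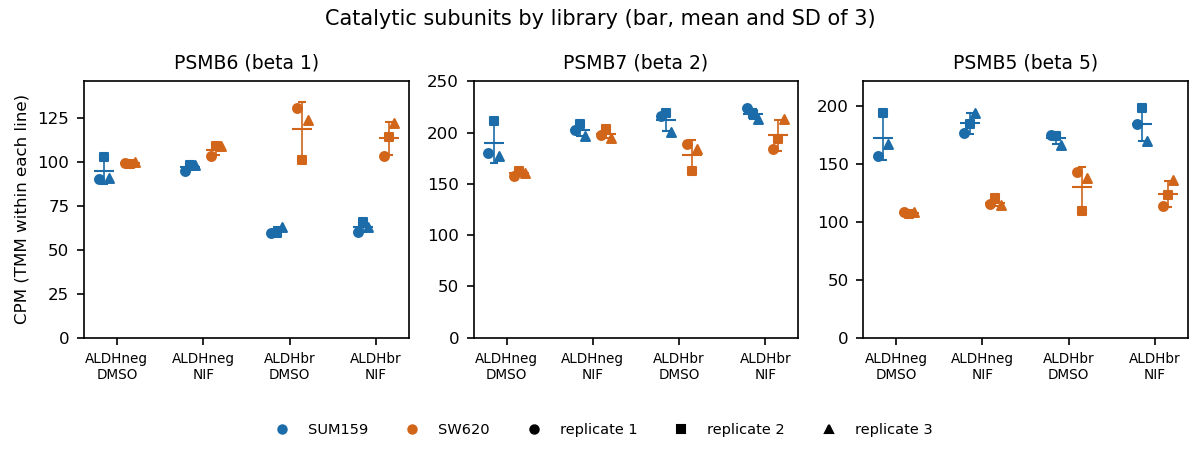
CPM of the catalytic subunits PSMB6, PSMB7 and PSMB5 (panels) in each of the 24 libraries, by line, population and treatment, with the mean and SD of 3 libraries, on axes that start at 0. SUM159 ALDHbr libraries have 59.4 to 65.9 CPM of PSMB6 against 90.0 to 103 in ALDHneg, and PSMB7 of SW620 ALDHneg cells is higher under NIF in each library.

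Among the chaperones, PSMD9 was called once within a line when all its libraries were fitted without the covariate, at 52.1, 56.2 and 52.1 CPM in ALDHbr against 57.4, 67.7 and 67.0 CPM in ALDHneg SUM159 cells under DMSO, a log2 difference of -0.26 ± 0.07 (SE; adjusted p = 0.0104) without overlap. PSMD5 and PSMD10 (gankyrin) were not called in those fits. In SW620 ALDHneg cells PSMD5 had 101 ± 2.31 CPM under DMSO and 94.1 ± 1.58 CPM under NIF (SD, n = 3), a difference of -0.10 (adjusted p = 0.202). With the covariate this difference was called (-0.11, adjusted p = 0.0168), and PSMD9 was higher under NIF in SW620 ALDHbr (0.11, adjusted p = 0.0484) and ALDHneg cells (0.13, adjusted p = 0.0149). Without replicate 2 of SW620 ALDHbr DMSO, PSMD5 was lower in ALDHbr than in ALDHneg cells under DMSO (-0.22, adjusted p = 0.0115) and PSMD9 higher (0.30, adjusted p = 0.00628).

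Between the lines, under DMSO in ALDHbr cells, 28 of 34 members were called, close to the 81.3% of all genes. Of these 23 were higher in SW620 (39.6% of all genes) and 5 lower (41.7%). Other differences between the lines, such as tissue of origin, cannot be told apart. The beta ring subunit PSMB3 was 2.89-fold higher in SW620 (log2 1.53, adjusted p = 1.93e-13), PSMB6 2.21-fold and PSMA7 2.17-fold. On the other side the lid subunit PSMD6 was lower by 0.81 on the log2 scale (adjusted p = 2.28e-10) and PSMD2 by 0.56 (adjusted p = 2.65e-09). The median over members was 0.30 against -0.05 over all genes, the lowest quintile of transcript length having a median of 0.19 and the highest -0.31. Scaling by library size moved the median of all genes to -0.20 and the calls to 18 higher and 8 lower (81.5% of all genes). Without replicate 2 of SW620 ALDHbr DMSO 25 were higher and 4 lower (80% of all genes).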

How the data were processed

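RNA was prepared with a stranded total RNA kit from samples with an RNA integrity score above 8. The submitters' processing notes name STAR, FastQC and GRCh38; the counting tool, annotation and settings are not given in the sources used here, so overlapping and near-identical genes are uncertain. The table deposited by the authors holds raw gene counts, 1 column per library. All 24 columns were mapped to samples by their names.

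Tests used edgeR 4.0.16 and limma 3.58.1 under R 4.3.3. Genes were filtered by filterByExpr, scaled by TMM and compared by quasi-likelihood F tests; p-values were adjusted by Benjamini-Hochberg over all genes tested, with a threshold of 0.05. A separate model was made for each line from its 12 libraries and 4 groups (14953 genes in SUM159, 13953 in SW620), and lines were compared in a fit of 24 libraries (16271 genes). Log2 CPM used a prior count of 2. Particle levels are means over genes and carry no test. Replicates of a group differed by more than sampling noise (chi-square per gene 1.97 to 46.1 over 24 pairs). The scripts were tested on simulated counts.

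The replicate number was accepted as a pairing in SUM159, from the data alone: same-numbered libraries correlated at 0.13 to 0.45 in 18 of 18 pairs of libraries after group means were removed. In SW620 1 of 18 such pairs exceeded 0.1. Members and lists were chosen with earlier results of these data known. Genes described in full were, in each comparison of NIF with DMSO, up to 2 called members with the highest and 2 with the lowest log2 difference, the catalytic subunits, the chaperones, and the called member with the largest difference between populations. PSMA7, PSMD2, PSMD14 and the other members named beyond these were chosen after their values were seen. Of the companions, NFE2L1, POMP, PSMF1, the immunoproteasome subunits, the caps and the most changed gene were named, and KEAP1 after its values were seen. Some companions are not reported here. Transcript lengths are exon sums of the Ensembl canonical transcripts in a GENCODE annotation on an older genome build. Positions and promoters are from RefSeq (GRCh38.p14), with 34 of 34 members matched to a gene and 29 to a promoter. Alternatives were other scalings (RLE, library size), filters, the replicate block, DESeq2 1.42.0, each library left out, and other sets of libraries.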

Additional observations from a re-analysis of the deposited data

Results flagged for a closer look

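The effect of NIF differed between the lines, by the interaction test of edgeR, for the members and companions below, and values are SW620 minus SUM159 on the log2 scale. Chance alone gives some such calls at an adjusted p of 0.05. In ALDHbr cells 6 of 34 members were called (17.6%), all lower, where 23.1% of all genes were called and 10.7% were lower. In ALDHneg cells 2 of 34 were called (5.88%), both lower, where 22.4% of all genes were called and 10.5% were lower. In ALDHbr cells the members were PSMA5 (-0.35, adjusted p = 0.0226), PSMA2 (-0.32, adjusted p = 0.0385), PSMB2 (-0.30, adjusted p = 0.00446), PSMD13 (-0.30, adjusted p = 0.0396), PSMD1 (-0.26, adjusted p = 0.00671) and PSMD3 (-0.23, adjusted p = 0.0128). In ALDHneg cells they were PSMD1 (-0.30, adjusted p = 0.00170) and PSMD2 (-0.26, adjusted p = 0.0202).

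PSMB2 and PSMD1 in ALDHbr cells held in all 20 alternatives and PSMD1 in ALDHneg cells in all 19. PSMA2 lost its call in 11 of 20 and PSMD13 in 12 of 20, in both cases also without replicate 1 or 3 of SW620 ALDHbr DMSO. In the same comparison of ALDHbr cells the lowest quintile of transcript length had a median of -0.10 and the highest 0.12, and the part of that in these calls was not tested.

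Among the companions in ALDHbr cells, PSMB8 differed by -0.80, PSMB10 by -0.79, PSME2 by -0.58, PSME1 by -0.44 and PSME3 by -0.43. In the other direction ZFAND2A differed by 0.84, NFE2L2 by 0.56, PSME4 by 0.35 and NFE2L1 by 0.33. In ALDHneg cells PSME3 differed by -0.46 and PSME2 by -0.44, and ZFAND2A by 1.05, NFE2L2 by 0.57 and NFE2L1 by 0.38.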

How the results depend on the processing

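Among called members, 1 value changed direction: PSMD1, 0.11 higher in SW620 than in SUM159 ALDHbr cells under DMSO, was -0.042 with library-size scaling (adjusted p = 0.362) and lost its call in 11 of 13 alternatives. The particle levels, which carry no test, are given last. The counts of members below stand without the share of all genes called, which also moved with the setting. For NIF in SW620 ALDHbr cells that share ran from 32.6% to 54.5% over the settings for which it is given above. The counts alone therefore do not describe the members. The replicate block gave 3 members for NIF in SUM159 ALDHbr, 10 for ALDHbr against ALDHneg in SUM159 and, where numbers did not pair the libraries, 5 and 3 for NIF in SW620 ALDHbr and ALDHneg, 0 between the SW620 populations and 5 for the line difference in ALDHneg cells. It moved no other count by over 1.5 times. DESeq2 gave 1 for NIF in SUM159 ALDHbr, 9 between the SW620 populations and 6 for the line difference in ALDHneg cells. Fitting only the groups compared gave 0 for NIF in SW620 ALDHbr, 22 in SW620 ALDHneg, 0 between the SW620 populations, and 2 and 6 for the line differences in ALDHbr and ALDHneg cells. Between the SW620 populations, no filter gave 8 and a fit of all 24 libraries 7. For the line difference no filter gave 3 in ALDHbr cells, and in ALDHneg cells RLE size factors gave 4, library-size scaling 7 and at least 10 counts in every library 5.

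Leaving out each library in turn gave 1 to 16 members for NIF in SW620 ALDHbr, 3 to 4 in SW620 ALDHneg, 5 to 9 between the SUM159 populations, 0 to 26 between the SW620 populations, and 3 to 13 and 1 to 5 for the line differences in ALDHbr and ALDHneg cells. Of the settings chosen after seeing the data, leaving out replicate 2 of SW620 ALDHbr DMSO with replicate 1 of SW620 ALDHbr NIF gave 15 for NIF and 10 for the line difference. The length balance as a covariate gave 1 and 15 in SUM159 (NIF in ALDHbr, populations) and 20, 23 and 0 in SW620 (NIF in ALDHbr, NIF in ALDHneg, populations).

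With medians in place of means over genes, the NIF difference of the core was 0.14 in SUM159 ALDHbr and 0.13 in SW620 ALDHneg, that of the regulatory particle in SW620 ALDHneg 0.063, and that of the gap -0.16 in SW620 ALDHbr and 0.066 in SW620 ALDHneg. Library-size scaling gave -0.011 for the core and -0.052 for the regulatory particle in SW620 ALDHneg, both positive under TMM. The causes of these changes were not tested, beyond the fewer libraries in some fits. Member genes held at least 805 reads in a library, and their counting error is part of the spread between replicates.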
